A study of Mus musculus with 4 samples.

Results

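The cells described here are Treg cells that carry RNA for Ccr8, a chemokine receptor, and stay under set limits on granzyme B, Ccl5, Il10, Ccl3 and Ccl4 RNA. They were chosen from barcodes with 500 genes or more and no more than 10% of UMIs from mitochondrial genes (unique molecular identifiers, 1 per captured RNA molecule). A chosen cell held at least 1 Foxp3 UMI and at least 2 Ccr8 UMIs, fewer than 2 UMIs summed over Ccl3, Ccl4 and Il10, and fewer than 5 UMIs summed over Gzmb and Ccl5. The rule gave 650 cells of 13738 cells with a Foxp3 UMI. They are called Ccr8 cells below, and they were set against the 11345 cells with a Foxp3 UMI and no Ccr8 UMI in the same libraries. The levels of the 7 genes named in the rule chose the cells, so those levels are described and not tested.

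Treg cells are CD4 T cells that restrain other lymphocytes and depend on the transcription factor Foxp3. CCR8 is a G protein-coupled receptor for the chemokine CCL1 and, in the mouse, also for CCL8. It is known as a receptor of activated Treg cells in skin and in tumours.

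The data are 4 single-cell RNA libraries (10x Genomics 5′ chemistry) of C57BL/6 mice in which Foxp3 carries a GFP tag, 1 library each of 7-week liver, 7-week spleen, neonatal (12-day) liver and neonatal (12-day) spleen. All 4 were enriched for CD4+ cells on L3T4 microbeads and then sorted as CD4+Foxp3GFP+ cells. The series design describes the 12-day animals as Foxp3GFP-Cre Rosa26loxP-Stop-loxP-YFP, which couples the reporter to Cre under Foxp3 and adds a Cre-dependent YFP, and the labels do not give this genotype for the 7-week animals, whose stage label reads "aged". How many mice went into a library is not given, and no combination of age and tissue has a second library. Values of the 4 libraries are always given in the order 7-week liver, 7-week spleen, neonatal liver, neonatal spleen.

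Ccr8 (ENSMUSG00000042262) lies on chr9:120092114-120094906, plus strand, of GRCm38. The window from 250 bases before to 50 after its RefSeq start is shown because Ccr8 RNA defines these cells. That start is not the first base of the position given above. In the window 3 motifs that recur below (AP-1 as TGANTCA, E-box as CACGTG, and NF-kB as GGG, any 2 bases and TTTCC, on both strands) were searched. The sequence, chr9:120091883-120092182 of GRCm38.p6, plus strand, is RefSeq's, and these letters are not in this window.
Ccr8: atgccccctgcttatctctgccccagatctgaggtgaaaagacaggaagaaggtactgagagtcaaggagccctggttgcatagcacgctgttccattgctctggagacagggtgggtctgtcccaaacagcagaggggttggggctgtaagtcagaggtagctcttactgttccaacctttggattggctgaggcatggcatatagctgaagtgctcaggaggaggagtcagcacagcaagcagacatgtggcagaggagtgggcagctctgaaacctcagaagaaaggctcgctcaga

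The Ccr8 cells numbered 16, 131, 179 and 324 in the 4 libraries and held 76252, 711852, 1516244 and 3001404 UMIs in all. Counts per 1000000 UMIs (CPM) of 7-week liver therefore rest on few molecules, about 13.1 CPM for 1 UMI. Ccr8 itself was at 774, 614, 670 and 426 CPM, and Foxp3 at 485, 545, 401 and 406 CPM in Ccr8 cells, against 685, 636, 570 and 560 CPM in cells without a Ccr8 UMI. Exactly 2 Ccr8 UMIs, the lowest number the rule takes, were held by 9, 66, 43 and 149 of the Ccr8 cells, while 48, 229, 491 and 492 Foxp3 cells with exactly 1 Ccr8 UMI lay just outside. On the granzyme side, 0, 2, 11 and 10 Ccr8 cells held 4 UMIs of Gzmb and Ccl5 together, and 1, 3, 32 and 10 cells with 2 or more Ccr8 UMIs held 5. Gzmb was at 26.2, 7.02, 50.8 and 13.3 CPM in Ccr8 cells, against 81.0, 22.5, 777 and 176 CPM in cells without a Ccr8 UMI. Ccl5 was at 65.6, 35.1, 67.9 and 29.3 CPM in Ccr8 cells, against 252, 107, 1606 and 278 CPM in cells without a Ccr8 UMI. On the cytokine side, 0, 8, 24 and 10 Ccr8 cells held 1 UMI of Ccl3, Ccl4 and Il10 together, and 0, 6, 31 and 10 cells with 2 or more Ccr8 UMIs held 2. Il10 was at 0, 11.2, 13.85 and 2.67 CPM in Ccr8 cells, against 4.74, 2.24, 19.5 and 4.96 CPM in cells without a Ccr8 UMI. In 7-week spleen Il10 was thus higher in Ccr8 cells, from 8 UMIs. Ccl3 had 0, 0, 1 and 0 UMIs in Ccr8 cells, and Ccl4 had 0, 0, 2 and 2.

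The markers of the label were present. A UMI of the T cell receptor subunit Cd3e was found in 93.8%, 100%, 99.4% and 99.7% of Ccr8 cells. Ikzf2, which encodes the Treg factor Helios, was at 472, 730.5, 425 and 444 CPM in Ccr8 cells, against 420.3, 472, 519 and 433 CPM in cells without a Ccr8 UMI, and the groups overlapped (log2 fold change 0.08, SE 0.12; edgeR adjusted p = 0.639). Ctla4, an inhibitory receptor of Treg cells, was at 984, 610 and 602 CPM in 7-week liver, 7-week spleen and neonatal liver and at 376 CPM in neonatal spleen in Ccr8 cells, against 387, 293, 454 and 272 CPM in cells without a Ccr8 UMI. It was higher in Ccr8 cells of all 4 libraries, by 0.70 on the log2 scale (SE 0.11; adjusted p = 1.15e-05), although the ranges overlapped across libraries.

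Markers of other cells were summed by list after leaving out 7 that at least 3% of the cells without a Ccr8 UMI carried (Ighm, Cd79b, Xbp1, Cd74, Cd8b1, Pecam1 and Epcam). Of the 16 lineage lists, the neutrophil, the mast cell and basophil, and the cholangiocyte list without Epcam were then at 0 in the Ccr8 cells of all 4 libraries. The dendritic cell list without Cd74 summed to 13.1, 4.21, 34.3 and 2.67 CPM in Ccr8 cells, against 3.02, 24.4, 37.0 and 26.3 CPM in cells without a Ccr8 UMI, and the B cell list without Ighm and Cd79b to 0, 0, 15.2 and 0.666 CPM in Ccr8 cells, against 0.862, 0.914, 16.3 and 3.75 CPM in cells without a Ccr8 UMI. The markers left out were common in both groups: Ighm, the heavy chain of IgM, was found in 75.0%, 70.2%, 81.0% and 63.6% of Ccr8 cells, against 60.8%, 56.6%, 80.1% and 63.9% of cells without a Ccr8 UMI. Epcam, an epithelial adhesion protein, was found in 18.8%, 27.5%, 32.4% and 18.8% of Ccr8 cells, against 4.89%, 7.54%, 32.9% and 13.3% of cells without a Ccr8 UMI, and their part in the results was not tested. Leaving out every cell with at least 2 UMIs of any 1 lineage list, those 7 markers included, kept 8, 36, 34 and 79 Ccr8 cells, and without those 7 it kept 16, 126, 173 and 306. Depth moved with the groups: the median Ccr8 cell held 4514.5, 4735, 7365 and 7851 UMIs, against 2905.5, 3069, 4642.5 and 4644 UMIs in the median cell without a Ccr8 UMI. Library pairs shared 23 to 91 barcodes, and none was a Ccr8 cell in both. Of the 47, 290, 257 and 305 cells with the highest doublet scores, 0, 5, 4 and 22 were among the 16, 131, 179 and 324 Ccr8 cells. Another 33, 201, 145 and 173 were among the 1390, 3450, 3106 and 3399 cells without a Ccr8 UMI.

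Ccr8 cells made up a small share of the Treg cells in each library. They were 1.10% of Foxp3 cells in 7-week liver (exact Clopper-Pearson 95% interval 0.629 to 1.78%), 3.42% in 7-week spleen (2.87 to 4.05%), 4.31% in neonatal liver (3.71 to 4.97%) and 7.54% in neonatal spleen (6.77 to 8.37%). With 1 library each there is no test, and the intervals cover counting error only. After each cell was thinned to 1000 UMIs with 154, 90, 515 and 325 shallower cells left out, the same rule gave 0.246%, 0.553%, 1.98% and 0.681%, from 2, 11, 36 and 13 cells of 812, 1988, 1819 and 1909 with a Foxp3 UMI. The order of the libraries was not the same at equal depth: neonatal spleen was highest with all UMIs, and neonatal liver was highest after thinning. The limits in UMIs were the same at both depths and so remove fewer granzyme cells after thinning. With no limits, 1 or more Ccr8 UMIs remained after thinning in 1.85%, 2.87%, 8.41% and 6.39% of the cells that kept a Foxp3 UMI.

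The limits on granzyme and cytokine RNA took away most of the Ccr8 carrying cells in neonatal liver. At least 2 Ccr8 UMIs were found in 1.37%, 3.89%, 13.5% and 9.41% of Foxp3 cells, from 20, 149, 560 and 404 cells. Of these, 10.0%, 6.04%, 62.1% and 16.3% reached 5 UMIs of Gzmb and Ccl5, and after both limits 80.0%, 87.9%, 32.0% and 80.2% remained as Ccr8 cells. The same granzyme limit was reached by 6.55%, 2.09%, 37.8% and 9.06% of the cells without a Ccr8 UMI. A single Ccr8 UMI or more was found in 4.66%, 9.88%, 25.3% and 20.9% of Foxp3 cells. Of 37 barcodes with no T cell or Foxp3 UMI and 5 or more UMIs of other-lineage markers, with library medians of 1544 to 3054 UMIs, 0 held a Ccr8 UMI, which at 3 counts of 37 allows a share of up to 8.11% at that depth. The median Foxp3 cell held 2926.5, 3130, 5035 and 4981 UMIs.

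**Figure D1:**
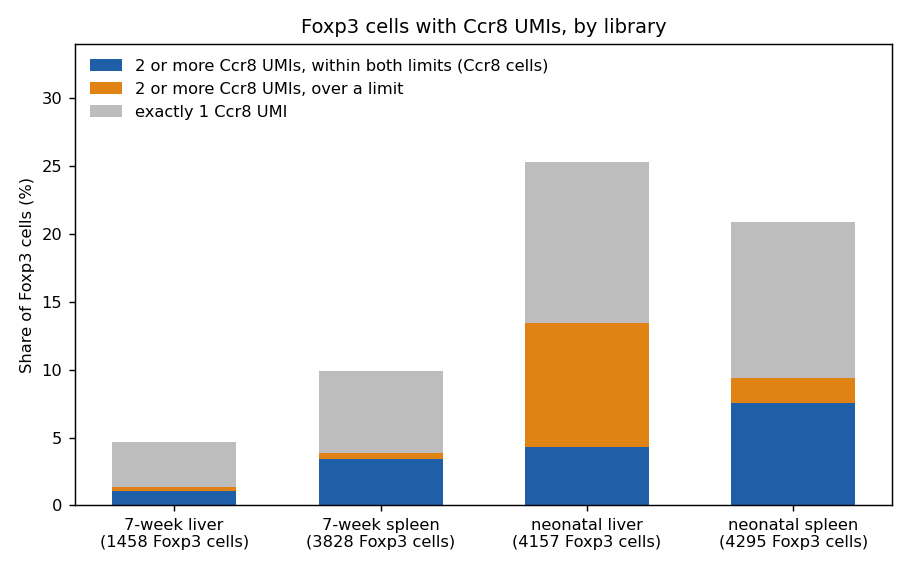
Stacked shares of Foxp3 cells (vertical axis, percent) in each of the 4 libraries: Ccr8 cells, cells with 2 or more Ccr8 UMIs that are over a limit on Gzmb with Ccl5 or on Ccl3, Ccl4 and Il10, and cells with exactly 1 Ccr8 UMI. In neonatal liver Ccr8 cells are 4.31% of the 13.5% with 2 or more Ccr8 UMIs, and in neonatal spleen 7.54% of the 9.41%.

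The ligand Ccl1 was found in Ccr8 cells of 7-week spleen. There 25 UMIs, or 35.1 CPM, lay in 5 of 131 Ccr8 cells, against 9 UMIs, or 0.748 CPM, in 1 of 3450 cells without a Ccr8 UMI. In the other libraries Ccl1 had 0, 0 and 3 UMIs in Ccr8 cells and 0, 2 and 0 UMIs in cells without a Ccr8 UMI, for 7-week liver, neonatal liver and neonatal spleen. Ccl8 had 0 UMIs in both groups of every library. Ccl1 was too low to be tested.

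The main comparison asked how Ccr8 cells differ from the other Treg cells of their own library. Ccr8 cells carried more RNA for the TNF receptors Tnfrsf9, Tnfrsf4 and Tnfrsf8, for most genes induced by the T cell receptor and most NF-kB pathway genes, and for a list of ribosome biogenesis genes drawn up after the values were seen. They carried less RNA for genes of resting and recirculating T cells, for several chemokine receptors and for most adhesion genes. UMIs were summed per library and group, and the 8 sums were fitted with edgeR's quasi-likelihood test with library as a block, so that p-values measure the spread of the within-library difference over 4 libraries of differing age and tissue. Of 9865 genes tested, 30.0% differed, with 1532 higher in Ccr8 cells (15.5%) and 1428 lower (14.5%), at a Benjamini-Hochberg adjusted p under 0.05. The 4 Ccr8 values all lay above the 4 others for 904 genes (9.16%) and all below for 781 (7.92%). The comparison cells were not held to the granzyme and cytokine limits and were shallower, and results that change when they are matched are named beside the gene. Matching depth also cut the comparison cells to the number of Ccr8 cells, with 7665 genes tested and 18.7% called, so depth and cell number cannot be told apart there.

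Among the TNF receptor superfamily, Tnfrsf9 and Tnfrsf8 were among the 12 highest genes, and other members moved less or did not pass. Tnfrsf9 (4-1BB, a costimulatory receptor; chr4:150914562-150946102, plus strand, GRCm38) was at 721, 1075, 741 and 740.0 CPM in Ccr8 cells, against 55.8, 144, 124 and 169 CPM in cells without a Ccr8 UMI. The groups were far apart, and 7-week spleen was the highest library in Ccr8 cells. The log2 fold change was 2.64 (SE 0.13; edgeR adjusted p = 3.26e-15), and 87.7% of Ccr8 cells held a Tnfrsf9 UMI. Tnfrsf4 (OX40, another costimulatory receptor of activated T cells; chr4:156013843-156016612, plus strand) was at 2820, 2078, 2038 and 1740 CPM in Ccr8 cells, against 310.2, 433, 592 and 563 CPM in cells without a Ccr8 UMI (log2 fold change 2.10, SE 0.14; adjusted p = 9.11e-13). The groups did not overlap. Tnfrsf8 (CD30) was at 39.3, 39.3, 12.5 and 10.7 CPM in Ccr8 cells, against 3.45, 4.41, 4.29 and 2.04 CPM in cells without a Ccr8 UMI, a log2 fold change of 2.41. Only 8.92% of Ccr8 cells held a Tnfrsf8 UMI, and 10 cells held 34.15% of its UMIs. Its value in 7-week liver rests on 3 UMIs. Tnfrsf1b (TNFR2) and Tnfrsf18 (GITR) were higher by 1.08 and 0.85 on the log2 scale. Over all genes 15.5% were higher and 14.5% lower. Of 16 genes in the list of TNF receptors and costimulation, 7 were higher and 2, the TNF family ligands Lta and Ltb, were lower. Neither of these passed the test against cells of matched depth, where the log2 fold changes were -0.25 for Lta and -0.0514 for Ltb. The costimulatory receptor Icos was at 302, 316, 244 and 172 CPM in Ccr8 cells, against 299, 184.5, 310.5 and 133 CPM in cells without a Ccr8 UMI, and did not pass the test. It passed, higher in Ccr8 cells, against cells held to the same limits (log2 fold change 0.35) and without neonatal liver (0.41).

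NF-kB is the family of transcription factors that TNF receptors and the T cell receptor switch on, and its own inhibitors are among its targets. Of 16 pathway genes tested, 12 were higher in Ccr8 cells and 0 lower, against 15.5% and 14.5% of all genes, and their median log2 fold change was 0.53 against -0.03 over all genes. Nfkbid, an atypical IkB protein, was at 525, 140.5, 95.6 and 117 CPM in Ccr8 cells, against 40.5, 47.0, 19.8 and 26.5 CPM in cells without a Ccr8 UMI, with no overlap (log2 fold change 2.19). Relb, Nfkb2 and the survival gene Bcl2l1 were higher by 1.12, 1.04 and 1.02 on the log2 scale. Traf1, an adaptor of TNF receptors, and Icam1, an adhesion molecule, were also among the higher members, Icam1 not without 7-week liver (log2 fold change 0.29) or without 7-week spleen (0.27). Bcl2a1d, an anti-apoptotic gene, was at 197, 174, 161 and 152 CPM in Ccr8 cells, against 9.91, 22.7, 25.04 and 26.7 CPM in cells without a Ccr8 UMI (log2 fold change 2.75). Bcl2a1d has near-identical copies, so reads could be divided among Bcl2a1d, Bcl2a1b and their relatives, and the single gene is uncertain.

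Promoter windows of a pair of these genes are shown because they hold both the AP-1 and the NF-kB motif, printed in capitals. They are RefSeq's, GRCm38.p6, plus strand: the second listed start of Tnfrsf9 (chr4:150927749-150928048) and a start of Nfkb2 (chr19:46305445-46305744). The other listed starts of these genes were searched too, and the first listed window of Tnfrsf9 holds none of the 3 motifs.
Tnfrsf9: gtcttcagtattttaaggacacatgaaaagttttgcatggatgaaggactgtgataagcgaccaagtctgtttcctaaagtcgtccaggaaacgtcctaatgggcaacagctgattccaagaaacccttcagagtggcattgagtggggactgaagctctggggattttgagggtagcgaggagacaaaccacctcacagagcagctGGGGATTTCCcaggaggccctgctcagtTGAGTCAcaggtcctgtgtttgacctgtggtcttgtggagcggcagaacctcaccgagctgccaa
Nfkb2: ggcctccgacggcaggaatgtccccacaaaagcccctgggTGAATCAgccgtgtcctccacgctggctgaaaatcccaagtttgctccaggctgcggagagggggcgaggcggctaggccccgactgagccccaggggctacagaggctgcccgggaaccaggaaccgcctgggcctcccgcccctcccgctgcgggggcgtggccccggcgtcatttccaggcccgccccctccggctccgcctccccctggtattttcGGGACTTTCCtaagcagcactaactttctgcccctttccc
The NF-kB motif was found for 5 of the 13 NF-kB pathway genes with a window (38.5%), against 2.17% of the tested genes and 1.89% of all 27025 genes with a window. Among genes higher in Ccr8 cells it was found for 2.51%, and among genes lower for 2.91%. The AP-1 motif was found for 5.03% of the higher genes, 8.01% of the lower genes and 5.44% of all tested genes. A match describes these letters only.

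Genes induced by the T cell receptor rose together. Of 18 tested, 14 were higher in Ccr8 cells and 0 lower, against 15.5% and 14.5% of all genes. Their median log2 fold change was 1.57 against -0.03 over all genes. Nr4a1 (Nur77, an immediate early nuclear receptor) was at 262, 388, 271 and 337 CPM in Ccr8 cells, against 50.2, 87.2, 45.1 and 93.4 CPM in cells without a Ccr8 UMI, with no overlap (log2 fold change 2.17, SE 0.12; edgeR adjusted p = 2.73e-14). In the livers Nr4a1 was uneven. Cells with exactly 2 Ccr8 UMIs were at 0 CPM in 7-week liver (9 cells) and 17.8 CPM in neonatal liver (43 cells). Cells with 0 under the same limits were at 50.4 and 43.0 CPM. The 3 cells of 7-week liver with 3 Ccr8 UMIs were at 1669 CPM. In both spleens cells with 2, 3 and 4 or more Ccr8 UMIs all lay above those with 0. The zinc finger factor Egr2 was at 39.3, 75.9, 31.0 and 51.6 CPM in Ccr8 cells, against 1.72, 24.9, 4.87 and 13.0 CPM in cells without a Ccr8 UMI (log2 fold change 2.07). Egr3, Nr4a3 and Rgs16, a regulator of G protein signalling, were higher by 2.46, 2.44 and 2.55 on the log2 scale. Myc, a transcription factor of cell growth, was at 302, 117, 231 and 258.5 CPM in Ccr8 cells, against 63.8, 94.4, 38.8 and 92.5 CPM in cells without a Ccr8 UMI. Its 4 Ccr8 values lay above all others (log2 fold change 1.58), with 7-week spleen the lowest of them.

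Transcription factors of effector Treg cells were mostly higher. Of 19 tested, 10 were higher and 1, Ikzf3, was lower, against 15.5% and 14.5% of all genes. Their median log2 fold change was 0.68. Bhlhe40 was at 131, 126, 36.3 and 45.7 CPM in Ccr8 cells, against 17.5, 14.5, 14.0 and 6.61 CPM in cells without a Ccr8 UMI, with the 7-week libraries the higher pair (log2 fold change 2.46). Batf, an AP-1 family factor needed by tissue Treg cells, was at 525, 469, 209 and 201 CPM in Ccr8 cells, against 142, 122, 126 and 101 CPM in cells without a Ccr8 UMI (log2 fold change 1.26). Its partner Irf4 and the related factor Irf8 were higher by 1.66 and 2.40 on the log2 scale. Gata3 and Tbx21, factors of helper T cell lineages, were higher by 0.44 and 0.84. Gata3 did not pass without 7-week spleen (0.31), Tbx21 without 7-week liver (0.73) or 7-week spleen (0.47), and Ikzf3 without neonatal liver (-0.31) or neonatal spleen (-0.37).

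Among inhibitory receptors, 7 of 10 tested were higher and 0 lower, against 15.5% and 14.5% of all genes. Their median log2 fold change was 0.77. Pdcd1 (PD-1) was at 157, 382, 159 and 151 CPM in Ccr8 cells, against 24.99, 84.3, 50.2 and 56.2 CPM in cells without a Ccr8 UMI, and the groups did not overlap (log2 fold change 1.77, SE 0.12; edgeR adjusted p = 2.72e-12). Lag3, Tigit and Cd160 were higher by 1.31, 1.23 and 1.74 on the log2 scale, Cd160 with 0 UMIs in Ccr8 cells of 7-week liver. Klrg1, a receptor of terminally differentiated cells, was at 419.7, 194, 386.5 and 155 CPM in Ccr8 cells, against 133, 54.6, 543 and 214 CPM in cells without a Ccr8 UMI. The 7-week and neonatal libraries lay on opposite sides for Klrg1, and it did not pass the test (log2 fold change 0.26). Against cells held to the same granzyme and cytokine limits Klrg1 passed, higher in Ccr8 cells by 0.81, as it did without neonatal liver (0.63) or neonatal spleen (0.73), and without 7-week spleen it stood at -0.23 with no call.

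Of Treg identity genes, 4 of 15 tested were higher and 4 lower, against 15.5% and 14.5% of all genes, with a median log2 fold change of 0.08. The higher ones were Cd83, Itgb8, which encodes an integrin chain that activates TGF-beta, Tnfrsf18 and Ctla4. The lower ones were Gpr83, Entpd1 (CD39), Nrp1 and the IL-2 receptor chain Il2rb. Entpd1 and Il2rb did not pass against cells held to the same limits, with log2 fold changes of -0.0566 for Entpd1 and -0.11 for Il2rb. Without neonatal liver they stood at -0.49 and -0.34, and without neonatal spleen at -0.60 and -0.37, with no call. Cd83, a surface protein of activated cells, was at 315, 393, 166 and 258 CPM in Ccr8 cells, against 49.3, 100.1, 30.1 and 58.0 CPM in cells without a Ccr8 UMI (log2 fold change 2.20, no overlap). Il2ra, whose product completes the IL-2 receptor, was at 354, 228, 179 and 199 CPM in Ccr8 cells, against 218, 269, 124 and 201 CPM in cells without a Ccr8 UMI, overlapped between groups and did not pass the test. Against cells of matched depth Il2ra passed, higher in Ccr8 cells by 0.41.

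Genes tied to tissue Treg cells and repair were more often higher than lower. Of 16 tested, 8 were higher and 3 lower, against 15.5% and 14.5% of all genes, so the lower count lies near the share over all genes. Penk, the precursor of enkephalin peptides (chr4:4133531-4138819, minus strand), was at 288, 728, 863 and 693 CPM in Ccr8 cells, against 20.0, 42.0, 106 and 148 CPM in cells without a Ccr8 UMI (log2 fold change 3.11, SE 0.18; edgeR adjusted p = 3.9e-14). The groups did not overlap. Penk was uneven among the cells: 27.9% of Ccr8 cells held a UMI of it, and the 10 highest cells held 26.9% of its UMIs. The decoy receptor Il1r2, which binds IL-1 without signalling, was at 26.2, 157, 23.7 and 24.99 CPM in Ccr8 cells, against 3.45, 8.06, 2.03 and 1.82 CPM in cells without a Ccr8 UMI, with 7-week spleen far above the other libraries (log2 fold change 3.85). Il1r2 was uneven too: 9.23% of Ccr8 cells held a UMI of it, and 10 cells held 43.1% of its UMIs. Its value in 7-week liver rests on 2 UMIs. Pparg, Areg and Gata3 were also higher. Pparg had 0, 1, 37 and 26 UMIs in Ccr8 cells, with 42.2% of them in 10 cells. Areg was higher by 0.87 from few molecules and did not pass the test without any 1 of the 4 libraries (0.77 to 1.09). Il1rl1, which encodes the IL-33 receptor ST2 that marks repair Treg cells, was lower: 13.1, 1.40, 8.57 and 4.33 CPM in Ccr8 cells, against 30.2, 7.98, 16.6 and 6.33 CPM in cells without a Ccr8 UMI (log2 fold change -0.93, SE 0.31; adjusted p = 0.0201). Il1rl1 lost the call without neonatal liver (-0.94), 7-week liver (-0.885) or 7-week spleen (-0.78), and without cycling cells (-0.32). The suppressive mediator Fgl2 and the tetraspanin Cd9 were lower by 0.69 and 0.40 on the log2 scale. Fgl2 did not pass against cells held to the same limits, where it turned to 0.26, or without neonatal spleen (-0.36), and Cd9 did not pass without neonatal liver (-0.34) or neonatal spleen (-0.39).

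**Figure D2:**
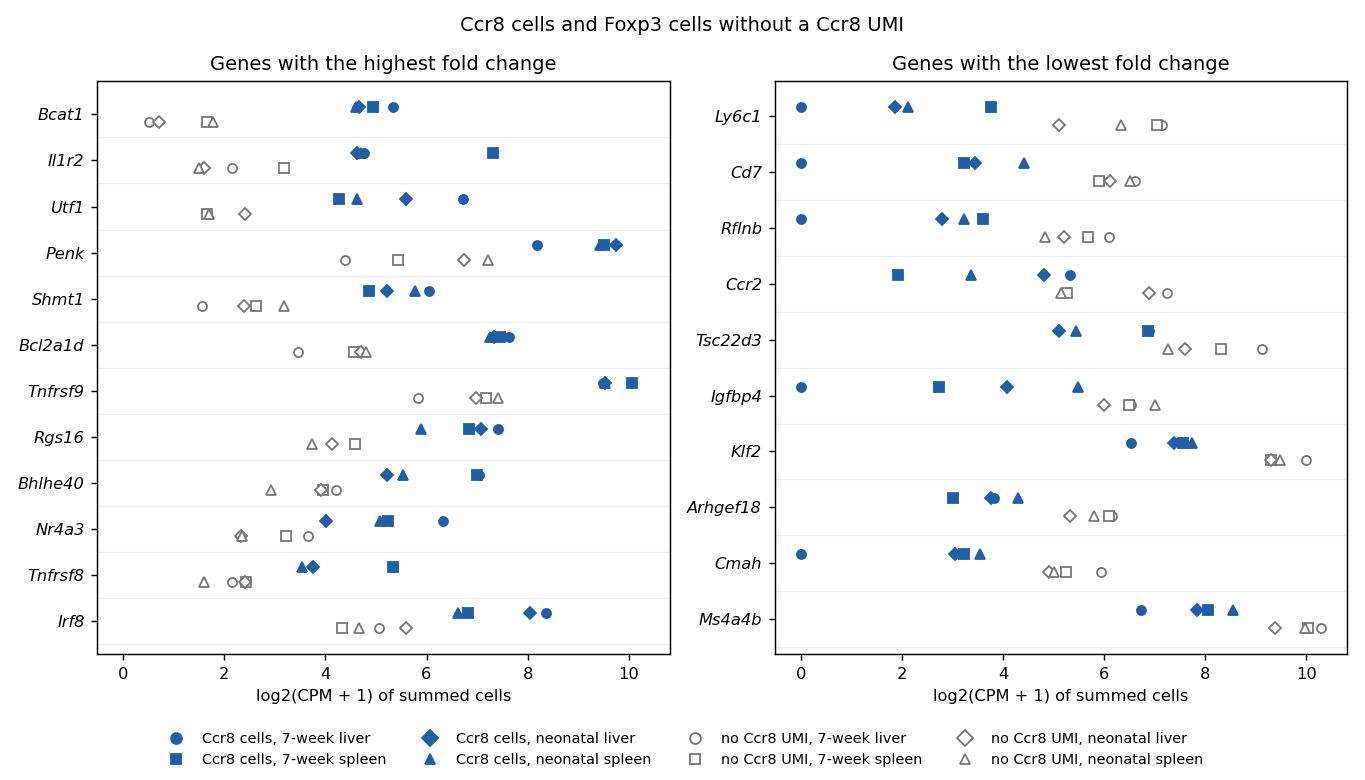
Level of the 12 highest and 10 lowest named genes, as log2(CPM + 1), in Ccr8 cells (filled) and in cells without a Ccr8 UMI (open) of each of the 4 libraries. Filled points lie right of open ones for the upper genes and left of them for the lower genes in every library, and 7-week liver with its 16 Ccr8 cells is at 0 for several of the lower genes.

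Genes of growth metabolism were higher in Ccr8 cells. Bcat1, a branched-chain amino acid transaminase, was at 39.3, 29.5, 24.4 and 23.3 CPM in Ccr8 cells, against 0.431, 2.16, 0.638 and 2.42 CPM in cells without a Ccr8 UMI, the highest fold change of the 12 leading genes (log2 3.99, SE 0.33; edgeR adjusted p = 9.02e-11). Shmt1, a serine hydroxymethyltransferase of the folate cycle, was higher by 2.87 on the log2 scale. Odc1, the first enzyme of polyamine synthesis, was at 419.7, 267, 319 and 229.6 CPM in Ccr8 cells, against 54.9, 55.8, 61.8 and 64.4 CPM in cells without a Ccr8 UMI, with no overlap (log2 fold change 2.19). Because these genes led, a list of 20 genes of serine, one-carbon, polyamine and amino acid supply and a list of 25 ribosome biogenesis genes were added after the values were seen. Of the first, 17 were higher and 1, the transporter Slc38a2, lower, against 15.5% and 14.5% of all genes. The median log2 fold change was 1.22. Slc38a2 lost the call without neonatal liver (-0.31) or neonatal spleen (-0.45). Of the second, 25 of 25 were higher, with a median of 1.47. These counts describe the lists and are not independent evidence, since the lists were drawn up from the pattern.

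Among ribosome biogenesis genes, Nop16, a nucleolar assembly protein, was at 236, 115, 136 and 115 CPM in Ccr8 cells, against 21.5, 34.4, 22.0 and 38.6 CPM in cells without a Ccr8 UMI (log2 fold change 2.05, no overlap). The nucleolar proteins Ncl and Npm1 were higher by 1.29 and 0.79 on the log2 scale. Nop2, a ribosomal RNA methyltransferase, and Grwd1, a ribosome assembly factor, were higher by 1.58 and 1.99. Their RefSeq windows (GRCm38.p6; Nop2, chr6:125131633-125131932, plus strand; Grwd1, chr7:45830740-45831039, minus strand) are shown because each holds an E-box, in capitals, the hexamer that Myc with its partner Max is known to bind.
Nop2: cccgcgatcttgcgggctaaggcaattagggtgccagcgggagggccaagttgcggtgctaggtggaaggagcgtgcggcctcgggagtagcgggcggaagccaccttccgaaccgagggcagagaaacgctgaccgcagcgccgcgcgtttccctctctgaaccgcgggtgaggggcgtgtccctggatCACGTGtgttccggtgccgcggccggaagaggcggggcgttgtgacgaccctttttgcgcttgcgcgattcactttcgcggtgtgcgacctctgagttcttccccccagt
Grwd1: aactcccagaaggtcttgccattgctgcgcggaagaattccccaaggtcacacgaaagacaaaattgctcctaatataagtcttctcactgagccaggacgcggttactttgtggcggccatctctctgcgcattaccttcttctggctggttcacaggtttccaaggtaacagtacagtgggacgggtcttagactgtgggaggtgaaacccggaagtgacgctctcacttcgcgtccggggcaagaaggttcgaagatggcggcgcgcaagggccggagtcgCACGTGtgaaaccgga
An E-box was found for 7 of the 22 ribosome biogenesis genes with a window (31.8%), against 12.4% of tested genes and 8.09% of all genes with a window. It was found for 16.5% of the genes higher in Ccr8 cells and for 11.4% of the genes lower. Whether Myc binds these windows in these cells was not tested.

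Glycolysis genes were higher in 11 of 15 tested and lower in 0, against 15.5% and 14.5% of all genes. Their median log2 fold change was 0.60. Tpi1 (triosephosphate isomerase) and Pgam1 (phosphoglycerate mutase) were higher by 1.19 and 1.17 on the log2 scale, and Hk2, a hexokinase of few molecules, by 2.35. Against comparison cells of matched depth, 6 of 14 were higher and 0 lower. Over all 7665 genes tested there, 813 were higher and 623 lower. Proliferation genes were higher in 13 of 19 tested, but with comparison cells of matched depth 0 were higher and 10 lower, with a median log2 fold change of -0.48 against 0.52. The mitosis gene Top2a was at 26.2, 47.8, 151 and 133 CPM in Ccr8 cells, against 32.5, 25.7, 152 and 61.0 CPM in cells without a Ccr8 UMI (log2 fold change 0.61), turned to -0.44 against cells of matched depth (edgeR adjusted p = 0.0461), and did not pass the test without neonatal spleen (0.26). Cells with at least 3 UMIs of cycle genes made up 25%, 32.8%, 41.9% and 47.5% of Ccr8 cells, against 12.2%, 8.93%, 27.9% and 21.2% of cells without a Ccr8 UMI. After thinning to 1000 UMIs these shares were 6.25%, 1.54%, 14.0% and 11.8% in Ccr8 cells, against 3.27%, 1.70%, 11.9% and 6.13% in cells without a Ccr8 UMI. At equal depth the shares lay closer, and in 7-week spleen Ccr8 cells were not above the others. With all cells over that cycling limit left out, 24 of 25 ribosome biogenesis genes were still higher. Over all 9029 genes tested then, 914 were higher.

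Genes of resting and recirculating T cells fell. Of 19 tested, 17 were lower in Ccr8 cells and 0 higher, against 14.5% and 15.5% of all genes. Their median log2 fold change was -1.41. Klf2, the factor that sustains egress and lymph node homing receptors, was at 91.8, 187, 166 and 214 CPM in Ccr8 cells, against 1018, 635, 629 and 711 CPM in cells without a Ccr8 UMI (log2 fold change -1.95, SE 0.14; edgeR adjusted p = 3.74e-12). The groups did not overlap. Its known target S1pr1, the egress receptor, was lower by 1.66 on the log2 scale. Ly6c1, a surface protein of resting T cells, was at 0, 12.6, 2.64 and 3.33 CPM in Ccr8 cells, against 141, 131, 33.5 and 79.4 CPM in cells without a Ccr8 UMI, the lowest log2 fold change of the named genes (-4.10, SE 0.22). Ly6c1 has a close copy, Ly6c2, so its reads may be divided between them. The survival gene Bcl2 was lower by 1.04 but did not pass the test against cells of matched depth (-0.41). Tsc22d3 (GILZ), a glucocorticoid-induced gene, and Igfbp4 were lower by 1.97 each.

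Chemokine receptors other than Ccr8 were mostly lower, with 8 of 15 tested lower and 3 higher (Ccr4, Ccr6 and Gpr183). Over all genes 14.5% were lower and 15.5% higher. Ccr2, which steers cells to inflamed tissue, was at 39.3, 2.81, 27.0 and 9.33 CPM in Ccr8 cells, against 150.4, 37.6, 118 and 34.5 CPM in cells without a Ccr8 UMI (log2 fold change -2.13). It was lower in Ccr8 cells of every library, while the ranges overlapped across libraries. Ccr7, a lymph node homing receptor, was at 0, 63.2, 58.0 and 104 CPM in Ccr8 cells, against 250.3, 190, 179 and 216 CPM in cells without a Ccr8 UMI (log2 fold change -1.46, no overlap). Cxcr3, which follows interferon-induced chemokines, was lower by 0.94. Against cells held to the same granzyme and cytokine limits 6 of 15 were lower, and over all 9764 genes tested 1373 were. The median log2 fold change of the 15 was then -0.49 against -1.13, and Cxcr3 no longer passed (-0.21). Ccr4 did not pass there either (0.30), nor without neonatal liver (0.32) or neonatal spleen (0.36), and Ccr6 did not pass without neonatal spleen (0.56). Of 22 adhesion genes tested, 14 were lower and 3 higher (Itgb8, Itgav and Icam1). Itgae (CD103, which binds E-cadherin on epithelia) was at 39.3, 33.7, 9.89 and 3.33 CPM in Ccr8 cells, against 110.5, 35.8, 17.4 and 9.47 CPM in cells without a Ccr8 UMI (log2 fold change -0.82). Itgae lost the call against cells of matched depth, where it stood at 0.035, without neonatal spleen (-0.61) and without 7-week liver (-0.71).

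Interferon-induced genes were lower in 7 of 13 tested and higher in 0, against 14.5% and 15.5% of all genes. Ifit1 was at 13.1, 12.6, 10.6 and 6.00 CPM in Ccr8 cells, against 82.1, 43.1, 17.1 and 13.3 CPM in cells without a Ccr8 UMI (log2 fold change -1.27), and did not pass against cells of matched depth (-0.53). There 1 of 11 was lower, and over all 7665 genes tested 623 were. Among cytokine genes, Ebi3, Tgfb1 and Tnf were among 5 of 8 that were higher. Prf1 (perforin) was lower by 2.09 on the log2 scale and did not pass without neonatal liver (-2.08). Xcl1, a chemokine gene, had the highest log2 fold change of that list (5.27), but 3.23% of Ccr8 cells held a UMI of it and 10 cells held 85.8% of its UMIs. Tnfsf11 (RANKL), a TNF family ligand, was at 157, 94.1, 55.4 and 97.0 CPM in Ccr8 cells, against 13.4, 41.7, 9.74 and 30.8 CPM in cells without a Ccr8 UMI (log2 fold change 1.82).

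**Figure D3:**
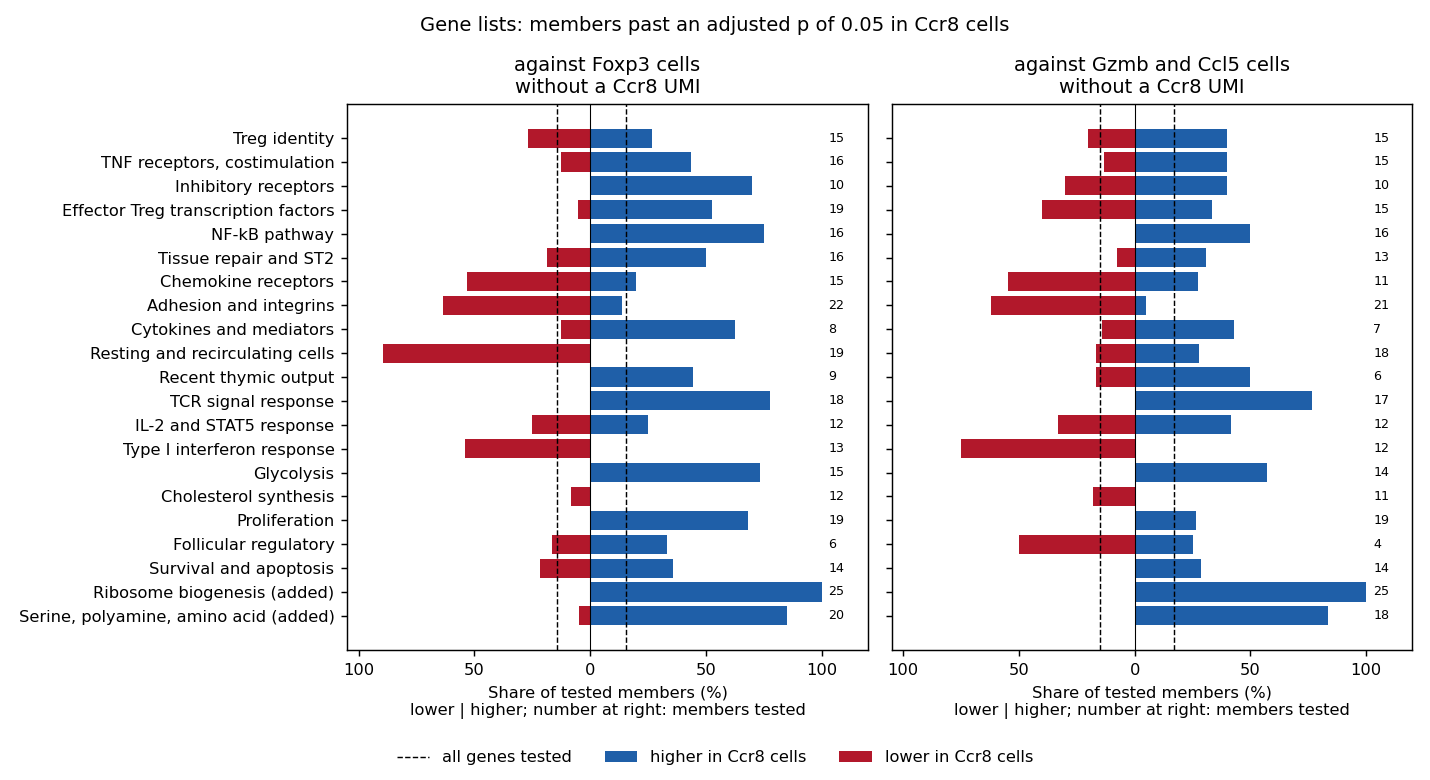
Percent of the tested members of each gene list that were higher or lower in Ccr8 cells, against cells without a Ccr8 UMI and against Gzmb and Ccl5 cells without a Ccr8 UMI, with dashed lines for all genes tested (15.5% higher and 14.5% lower in the first comparison, 17.0% and 15.0% in the second). Resting genes reach 17 of 19 lower in the first comparison and 3 of 18 in the second, while ribosome biogenesis genes are 25 of 25 higher in both.

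Levels of some of these genes ran with the number of Ccr8 UMIs, though not for every gene and library. In neonatal spleen, Tnfrsf9 was at 169, 311, 531, 731 and 990 CPM in cells with 0, 1, 2, 3 and 4 or more Ccr8 UMIs, all held to the same granzyme and cytokine limits. The same classes held 95.6, 235, 326, 570 and 919 CPM in neonatal liver and 142, 505, 776, 1035 and 1503 CPM in 7-week spleen. Klf2 ran the other way in the neonatal libraries, at 772, 476, 298, 180 and 130 CPM in neonatal spleen and 966, 589, 474, 162 and 60.2 CPM in neonatal liver. In 7-week spleen Klf2 was at 644, 262, 216, 112.5 and 188 CPM, lowest at 3 Ccr8 UMIs. Penk in neonatal spleen was at 146, 332, 446, 515 and 1069 CPM, while in neonatal liver it was at 61.7, 254, 355.5, 272.5 and 1157 CPM and so was not in order. The classes are a description with no test. Depth moved with them: in neonatal spleen the median cell held 4553 UMIs with 0 Ccr8 UMIs and 8849 UMIs with 4 or more, and its part in the gradient was not tested. In 7-week liver only 9, 3 and 4 cells were in the classes 2, 3 and 4 or more.

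**Figure D4:**
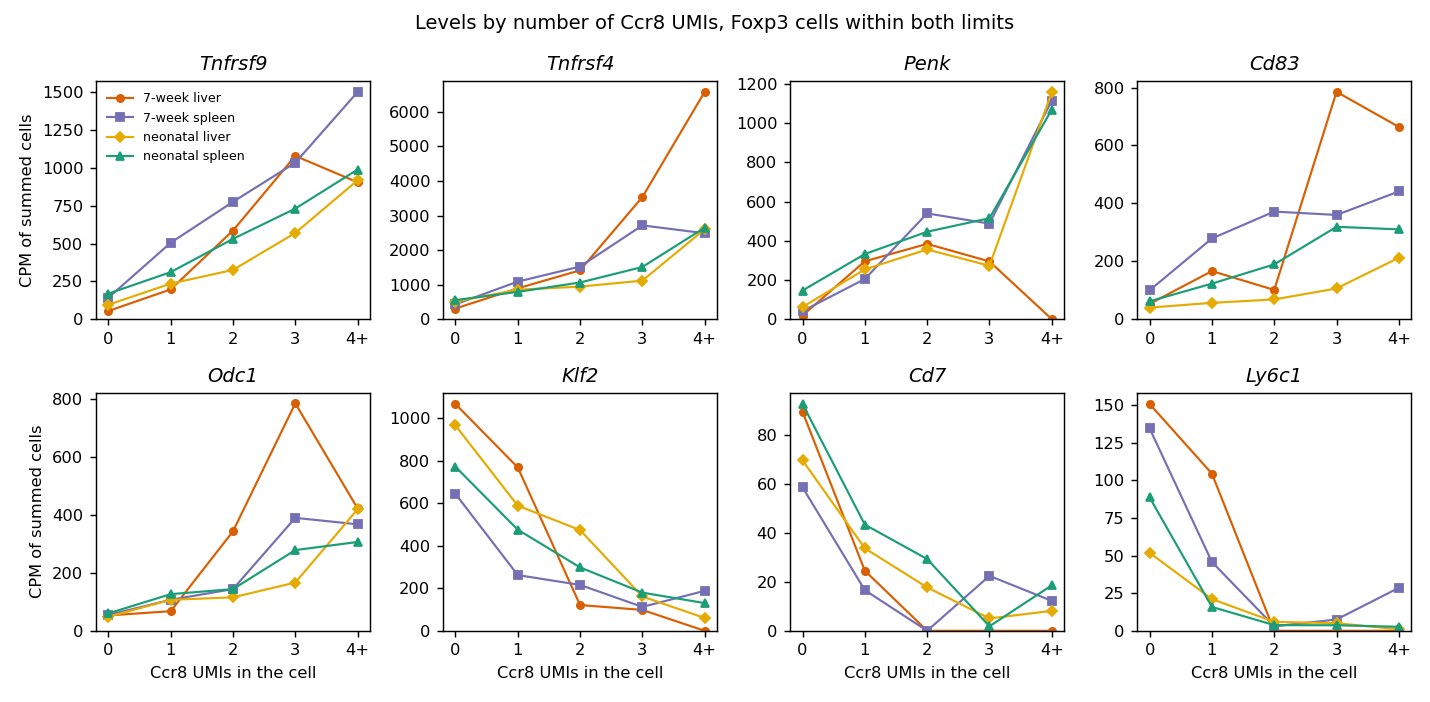
Level in CPM (vertical axis) of 8 genes in cells with 0, 1, 2, 3 and 4 or more Ccr8 UMIs (horizontal axis), 1 line for each library, in cells under both limits. In neonatal spleen Tnfrsf9 climbs from 169 CPM at 0 to 990 CPM at 4 or more and Klf2 declines from 772 to 130 CPM, while the line of 7-week liver rests on 9, 3 and 4 cells at its right end.

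Within the Ccr8 cells, some genes were near universal and others marked a minority. A Tnfrsf4 UMI was found in 100%, 98.5%, 98.9% and 97.2% of Ccr8 cells. A Tnfrsf9 UMI was found in 75.0%, 91.6%, 86.0% and 87.7% of Ccr8 cells, against 11.8%, 25.4%, 32.6% and 35.6% of cells without a Ccr8 UMI. After thinning to 1000 UMIs these were 56.2%, 53.9%, 44.1% and 45.5% of Ccr8 cells, against 4.69%, 11.2%, 10.1% and 11.9% of cells without a Ccr8 UMI, so the gap was there at equal depth. Pdcd1 was found in 56.2%, 64.9%, 56.4% and 54.6% of Ccr8 cells, against 5.90%, 16.2%, 18.3% and 17.8% of the others, and after thinning in 18.8%, 33.9%, 12.8% and 13.9%, against 2.08%, 6.77%, 4.39% and 4.70%. Cxcr5, the receptor of follicular cells, was found in 0%, 13.0%, 4.47% and 14.5% of Ccr8 cells, against 4.17%, 6.70%, 3.54% and 6.94% of the others. After thinning Cxcr5 was found in 0%, 2.31%, 1.68% and 1.55% of Ccr8 cells, against 1.41%, 2.31%, 1.05% and 1.73% of the others. The thinned values rest on 0, 3, 3 and 5 Ccr8 cells, too few to tell whether the gap in the spleens holds at equal depth. Cd74, the invariant chain of MHC class II, was found in 43.8%, 55.0%, 29.6% and 43.2% of Ccr8 cells, against 14.2%, 17.9%, 13.9% and 15.4% of the others.

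The second comparison set the Ccr8 cells against an effector class, 1645 Foxp3 cells with at least 5 UMIs of Gzmb and Ccl5 and no Ccr8 UMI (91, 72, 1174 and 308 per library). Ccr8 cells were again higher in Tnfrsf9, Tnfrsf4 and Tnfrsf8, most T cell receptor response genes and ribosome biogenesis genes. They were lower in receptors for inflammatory chemokines, adhesion genes and interferon-induced genes. Of 7715 genes tested, 32.0% differed, with 1312 higher in Ccr8 cells (17.0%) and 1160 lower (15.0%). The 4 Ccr8 values all lay above the 4 others for 833 genes (10.8%) and all below for 657 (8.52%). The granzyme and Ccl5 levels define both groups and are not tested. Other genes whose RNA goes with granzyme and Ccl5 can differ through that choice of groups, and this was not tested.

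Myc was at 302, 117, 231 and 258.5 CPM in Ccr8 cells, against 23.1, 27.9, 28.9 and 26.8 CPM in granzyme cells, and all Ccr8 values lay above (log2 fold change 3.09, SE 0.16; edgeR adjusted p = 3.23e-09). Bcat1 and Il1r2 led again, with log2 fold changes of 5.49 and 4.59 against few molecules in the granzyme cells. The tRNA modifying enzymes Pus7, Mettl1 and Trmt61a were higher by 3.79, 3.58 and 3.08 on the log2 scale. Tnfsf11 was at 157, 94.1, 55.4 and 97.0 CPM in Ccr8 cells, against 2.31, 6.21, 7.01 and 12.1 CPM in granzyme cells (log2 fold change 3.19). T cell receptor response genes were higher in 13 of 17 tested and lower in 0, with a median log2 fold change of 1.29, and ribosome biogenesis genes were higher in 25 of 25. Of 15 genes in the list of TNF receptors and costimulation, 6 were higher and 2, Icos and Ltb, lower, against 17.0% and 15.0% of all genes. Tnfrsf9, Tnfrsf4 and Penk were higher by 2.31, 1.87 and 2.59.

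Receptors for inflammatory chemokines were far lower in Ccr8 cells than in granzyme cells, a class chosen for its Gzmb and Ccl5 RNA. In the first comparison Cxcr3 lost its call once the comparison cells were held to the same granzyme and cytokine limits. Ccr2 was at 39.3, 2.81, 27.0 and 9.33 CPM in Ccr8 cells, against 353, 146, 163 and 120.1 CPM in granzyme cells, with no overlap (log2 fold change -3.29). Cxcr3 was at 131, 49.2, 162 and 45.7 CPM in Ccr8 cells, against 432, 456.5, 466 and 554 CPM in granzyme cells (log2 fold change -2.59, SE 0.27; edgeR adjusted p = 2.6e-06). Ccr3 was lower by 3.33 on the log2 scale. Adhesion genes were lower in 13 of 21 tested and higher in 1, Itgb8. Interferon-induced genes were lower in 9 of 12 and higher in 0. Among effector transcription factors, 5 of 15 were higher (Irf4, Bhlhe40, Rbpj, Batf and Gata3) and 6 lower (Id2, Runx3, Prdm1, Tbx21, Maf and Ikzf3). Without neonatal liver Rbpj (log2 fold change 0.81), Gata3 (0.34), Tbx21 (-1.34) and Maf (-0.64) did not pass, and without neonatal spleen Prdm1 (-0.50), Tbx21 (-0.30) and Maf (-0.48) did not. Gata3 also lost the call without either 7-week library (0.37 without the liver, 0.35 without the spleen). Of the resting genes 5 of 18 were higher and 3 lower, against 17.0% and 15.0% of all genes. Tcf7, a factor of naive and memory T cells, was at 0, 73.0, 25.7 and 86.6 CPM in Ccr8 cells, against 20.8, 37.3, 15.9 and 26.8 CPM in granzyme cells (log2 fold change 1.16). Tcf7 did not pass without neonatal spleen (0.64). Klrg1 was lower by 1.23 but did not pass without neonatal liver (-1.16) or neonatal spleen (-0.61). Entpd1 was lower by 2.06, and Il2ra was higher by 0.75 while Il2rb was lower by 1.06.

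Levels were also compared between libraries within the Ccr8 cells. Neonatal liver and neonatal spleen differed in few genes. Among 4588 genes measured, 90 (1.96%) were higher in neonatal liver and 68 (1.48%) lower, each by 2-fold or more. A gene was counted at 25 CPM and 50 UMIs or more in the higher library. There is 1 library a side, so these are values with exact intervals for counting error and no test, and age or tissue and library cannot be told apart.

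The chemokine receptor Cxcr6, a receptor of liver-resident lymphocytes, was at 83.1 CPM in Ccr8 cells of neonatal liver, against 12.3 CPM in those of neonatal spleen, a ratio of 6.74 (95% interval 4.64 to 10.0). Among cells without a Ccr8 UMI, Cxcr6 was at 119 CPM in the liver library and 19.2 CPM in the spleen library of neonatal mice, a ratio of 6.21. In Ccr8 cells Lgals3 (galectin-3) stood at 153 CPM for neonatal liver and 29.3 CPM for neonatal spleen, a ratio of 5.22 (4.07 to 6.75), and Cxcr3 at 162 CPM for neonatal liver and 45.7 CPM for neonatal spleen, a ratio of 3.54. Plac8 had the highest ratio, 14.1 (6.38 to 37.0), but 84.0% of its UMIs in neonatal liver lay in 10 cells. Gpr83, a Treg receptor, had 5.94 CPM in Ccr8 cells of neonatal liver and 62.0 CPM in those of neonatal spleen, 10.4-fold lower (5.38 to 23.2), the TNF family ligand Lta 8.98-fold lower, and Lad1, an anchoring filament protein, 8.48-fold lower. Tigit had 693 CPM in neonatal liver, against 298 CPM for neonatal spleen, a ratio of 2.33.

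Ccr8 cells of the spleen were also compared by age. Of 3655 genes measured, 93 (2.54%) were at least 2-fold higher in 7-week spleen and 167 (4.57%) at least 2-fold lower. With 1 or more Ccr8 UMIs these were 219 and 155, so the balance turned. The 50 UMIs that a gene must reach are a higher bar in 7-week spleen, whose Ccr8 cells held fewer UMIs, so the counts of higher and lower genes are not comparable. Top2a was at 47.8 CPM in 7-week spleen and 133 CPM in neonatal spleen. Igf2bp3, an RNA-binding protein of fetal tissues, was at 4.21 CPM in 7-week spleen from 3 UMIs, against 68.6 CPM in neonatal spleen (ratio 0.0614, 95% interval 0.0126 to 0.182). Il1r2 was at 157 CPM in 7-week spleen and 24.99 CPM in neonatal spleen, a ratio of 6.30 (4.66 to 8.55), Lag3 at 278 CPM in 7-week spleen and 74.6 CPM in neonatal spleen, a ratio of 3.73 (3.06 to 4.53), and Pdcd1 at 382 CPM in 7-week spleen and 151 CPM in neonatal spleen, a ratio of 2.53 (2.17 to 2.95). Among cells without a Ccr8 UMI the ratios were 4.44 for Il1r2, 1.66 for Lag3 and 1.5 for Pdcd1. Over the Ccr8 cells of all libraries, 10 cells held 43.1% of the Il1r2 UMIs, and the interval does not cover such unevenness.

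The 16 Ccr8 cells of 7-week liver allow little. Against 7-week spleen, 7 of 1300 genes measured were at least 2-fold higher (0.538%) and 209 lower (16.1%). Against neonatal liver, 15 of 2315 were higher (0.648%) and 600 lower (25.9%). The minimum of 50 UMIs can be reached in 7-week liver only by abundant genes, so the counts of higher and lower genes are not comparable. S100a4, a calcium-binding protein of effector T cells, was at 682 CPM in 7-week liver, against 164 CPM in 7-week spleen, a ratio of 4.15 (2.93 to 5.80). Ly6a was at 1403 CPM against 471 CPM in 7-week spleen, a ratio of 2.98 (2.38 to 3.72).

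**Figure D5:**
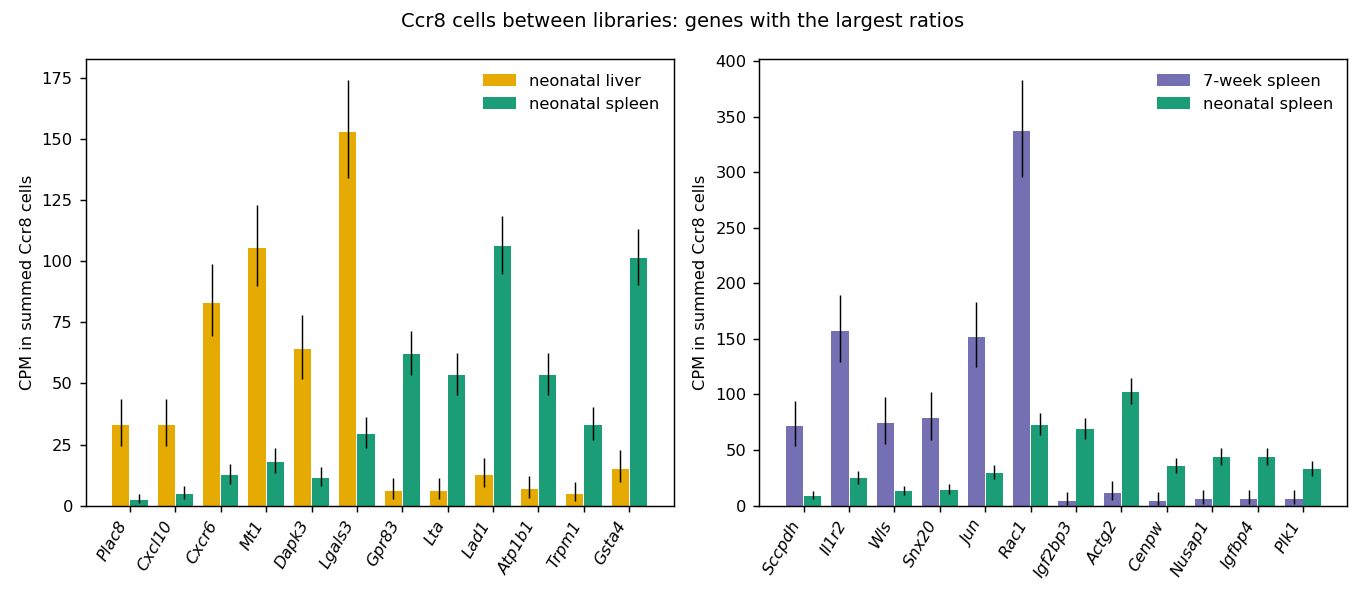
Levels in CPM with exact 95% Poisson intervals of the named genes in Ccr8 cells, as bars, for neonatal liver against neonatal spleen (left) and for 7-week spleen against neonatal spleen (right). Cxcr6 stands at 83.1 CPM for neonatal liver and 12.3 CPM for neonatal spleen, and Il1r2 at 157 CPM in 7-week spleen and 24.99 CPM in neonatal spleen.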

How the data were processed

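Per the file headers, the authors ran Cell Ranger 4.0.0 and deposited UMI counts, which are whole numbers with no normalization. The submitters' processing notes also name Seurat 4.0.2 and mm10. No source used here names the annotation release. Each of the 4 libraries listed 32285 features and held 7442185 (7-week liver), 20246352 (7-week spleen), 32519356 (neonatal liver) and 33813594 (neonatal spleen) UMIs. The members and gene lists were chosen with earlier results of these data known.

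Of 24546 barcodes, 20294 passed 500 genes and 10% mitochondrial UMIs. Doublets were not removed: Scrublet's automatic threshold marked 2, 0, 0 and 0 cells, so the highest scores at 0.8% per 1000 cells were left out as an alternative. Raw counts were summed per library and cell class and tested with edgeR 4.0.16 (TMM, filterByExpr, quasi-likelihood test, library as a block, Benjamini-Hochberg over all genes tested) in R 4.3.3. DESeq2 1.42.0 was an alternative. Where nothing says that libraries come from separate animals, p-values measure only the spread between these 4 libraries. On simulated counts, 80.0% of genes changed by 1 log2 unit and 100% of those changed by 2 were recovered for the first comparison, with 1 false call among 9965 genes. For the second these were 74.4% and 100%, with 2 false calls among 7749 genes. The simulated counts had the same dispersion for every gene and the same fold change in all 4 libraries. Apart from those changes, both classes of a library were alike, and UMIs were not uneven among cells. Recovery and false calls describe that setting and not the error rate of the real comparisons. For matched depth, each Ccr8 cell was given the comparison cell of its library nearest in total UMIs, each used once; in the second comparison 7-week spleen and neonatal spleen held fewer comparison cells (72 and 308) than Ccr8 cells, and all of them were used.

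Named genes were, per test, the 12 highest and 10 lowest log2 fold changes among genes past the threshold, changed alike in all 4 libraries and at 25 CPM or more, plus up to 4 members of each list and 6 genes in each direction per ratio, without receptor segments, ribosomal, mitochondrial, haemoglobin, immunoglobulin, sex-linked and unnamed genes. A further 43 genes in the first comparison and 20 in the second, such as Il1rl1, Klrg1, Batf, Nr4a1 and Nop2, were chosen after their values were seen. Intervals are exact at 95% and cover counting error only. Positions are from GENCODE vM21 and promoters from RefSeq, where 7843 of 9863 tested symbols matched. A few genes are not reported here.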

Additional observations from a re-analysis of the deposited data

Results flagged for a closer look

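Ccr8 RNA was also found in sorted cells without a Foxp3 UMI, which no comparison used. At least 2 Ccr8 UMIs were held by 0.518% of such cells in 7-week liver (5 of 966), 2.28% in 7-week spleen (50 of 2196), 5.69% in neonatal liver (86 of 1511) and 5.26% in neonatal spleen (99 of 1883). All passed the sort for Foxp3GFP, and how many of them hold Foxp3 RNA that was not captured was not tested.

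For 6 of the 120 named genes of the first comparison the libraries fell on opposite sides by age or tissue, and the difference was not tested. Genes that are not named were not searched for this. Several of these sides lie within counting error: in neonatal liver the ratio of Ccr8 cells to cells without a Ccr8 UMI was 0.997 (95% interval 0.867 to 1.14) for Top2a and 0.982 (0.496 to 1.77) for Cxcr5, in 7-week liver Top2a rests on 2 UMIs, and in neonatal spleen Il2ra was at 199 CPM in Ccr8 cells, against 201 CPM in cells without a Ccr8 UMI. Hmgcs1, an enzyme of cholesterol synthesis, was higher in Ccr8 cells of both 7-week libraries and lower in those of both neonatal libraries, with a log2 fold change of -0.45 over all 4. Top2a was lower in Ccr8 cells of both livers and higher in those of both spleens (0.61 over all 4). Cxcr5 was likewise lower in Ccr8 cells of both livers and higher in those of both spleens (0.32 over all 4). Il2ra was the reverse, higher in Ccr8 cells of both livers and lower in those of both spleens (0.12 over all 4). Klrg1 was higher in Ccr8 cells of both 7-week libraries and lower in those of both neonatal libraries (0.26 over all 4). Fgl2 was likewise higher in both 7-week libraries and lower in both neonatal ones (-0.69 over all 4).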

How the results depend on the processing

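Over 120 named genes and 2181 values under the alternatives, the comparison with cells without a Ccr8 UMI kept its direction and side of the threshold in 1929, lost the call in 218, gained it in 15 and turned in 19; the cause was not tested. Against matched-depth cells those that turned were Ccnb1 (-0.10), Mcm5 (-0.21), Top2a (-0.44) and Itgae (0.035). Against matched-depth cells under the same limits (chosen after seeing the data) they were Ccnb1 (-0.25), Mcm5 (-0.0902), Top2a (-0.63), Entpd1 (0.17), Fgl2 (0.39), Il2rb (0.0769), Itgae (0.0939) and Ltb (0.038). Fgl2 also turned under the same limits alone (0.26) and without cells with other-lineage markers (0.56). Among genes with no call, Il2ra turned with 1 or more Ccr8 UMIs (-0.0211) and after thinning (-0.14). Leaving out 1 library gave -0.0581 (without neonatal liver) to 0.28 for Il2ra, -0.0979 (without 7-week spleen) to 0.22 for Ikzf2 and -0.23 (without 7-week spleen) to 0.73 for Klrg1. In the comparison with granzyme cells, 608 of 642 values over 41 genes kept direction and call, 34 lost the call and 0 turned. The counts of genes higher and lower in the first comparison (main 1532 and 1428) were 934 and 836 with DESeq2's Wald test, 514 and 324 without the library block, 813 and 623 with matched-depth cells, 797 and 627 with matched-depth cells under the same limits, 914 and 643 without cycling cells, 678 and 620 without cells with other-lineage markers, and 422 and 369 after thinning, which leaves fewer UMIs. Leaving out 1 library gave 961 (without neonatal spleen) to 1647 (without 7-week liver) higher and 732 to 1249 lower. In the second (main 1312 and 1160) they were 853 higher with DESeq2's Wald test, 698 and 479 without the library block, 819 and 713 without cycling cells, 404 and 339 without cells with other-lineage markers, and 297 and 276 after thinning. Leaving out 1 library gave 716 (without neonatal spleen) to 1396 (without 7-week liver) higher and 621 (without neonatal liver) to 1165 lower. Library blocks are the only pairing, since no label carries a replicate number.

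The share of Ccr8 cells was 4.12%, 9.06%, 9.02% and 17.2% with 1 or more Ccr8 UMIs, 0.480%, 1.70%, 3.27% and 4.07% with 3 or more, and 0.246%, 0.553%, 1.98% and 0.681% after thinning (7-week liver, 7-week spleen, neonatal liver, neonatal spleen). Without the granzyme and cytokine limits it was 13.5% in neonatal liver and 9.41% in neonatal spleen, and without cells with other-lineage markers 1.71% in 7-week spleen, 3.21% in neonatal liver and 4.74% in neonatal spleen. Of genes apart by 2-fold or more, neonatal liver over neonatal spleen had 17 higher and 20 lower after thinning and 50 higher without cycling cells. The ratio of 7-week liver to 7-week spleen had 22 higher with 1 or more Ccr8 UMIs, 4 with 3 or more, 3 with TMM and 0 after thinning, and 22 lower after thinning and 85 without cycling cells. That of 7-week liver to neonatal liver had 50 higher with 1 or more Ccr8 UMIs, 8 with TMM and 3 after thinning, and 63 lower after thinning and 328 without cycling cells. That of 7-week spleen to neonatal spleen had 219 higher with 1 or more Ccr8 UMIs, 45 with 3 or more, 52 without cycling cells and 20 after thinning, and 39 lower after thinning. The 16 Ccr8 cells of 7-week liver limit every value of that library.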

Other observations

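For lists that no paragraph above describes, the shares over all genes tested were 15.5% higher and 14.5% lower in the first comparison and 17.0% and 15.0% in the second, and several counts lie near them. Of 12 genes of the IL-2 and STAT5 response tested against cells without a Ccr8 UMI, 3 were higher in Ccr8 cells (Gadd45b, Bcl2l1 and Ccnd2) and 3 lower (Socs3, Socs2 and Pim1). Socs3, a feedback inhibitor of cytokine signalling, was at 78.7, 16.9, 19.8 and 19.0 CPM in Ccr8 cells, against 68.9, 66.8, 49.5 and 63.0 CPM in cells without a Ccr8 UMI, so 7-week liver ran against the other libraries (log2 fold change -1.56). Of 14 survival and apoptosis genes, 5 were higher and 3 lower. Of 9 genes of recent thymic output, 4 were higher (Hivep3, Cd24a, Itm2a and Tox) and 0 lower. Itm2a did not pass against cells of matched depth (0.47) and Cd24a did not without neonatal spleen (1.09). Of 12 cholesterol synthesis genes, 0 were higher and 1 lower. Of 6 follicular regulatory genes, 2 were higher (Pdcd1 and Bcl6) and 1, Sh2d1a, lower. Bcl6 did not pass without neonatal liver (1.13) or neonatal spleen (0.93). Against the granzyme cells, the IL-2 and STAT5 list had 5 of 12 higher and 4 lower, and cholesterol synthesis had 0 of 11 higher and 2 lower.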
